A study of Mus musculus with 10 samples.

Results

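The 10 genes described here carry fatty acids into and through the cell, and they were followed in hepatic stellate cells (HSCs), the retinoid-storing cells of the liver. The genes were those entries of the deposited table whose gene symbol is Fabp1, Fabp3, Fabp4, Fabp5, Fabp7, Slc27a1, Slc27a2, Slc27a3, Slc27a4 or Lpl, which gave 10 entries among the 25233 entries with a symbol and the 62322 entries in all. Bulk RNA sequencing compared 5 libraries of hypertrophied HSCs (hypHSCs) with 5 libraries of quiescent HSCs (qHSCs), all sorted from the liver of male C57BL/6J mice. The hypHSCs were taken after feeding the CDAHFD, a diet poor in choline and rich in fat that serves as a model of steatohepatitis, for 13 weeks at an age of 19 weeks (hypHSC 1 and 2) or for 12 weeks at an age of 18 weeks (hypHSC 3, 4 and 5). Donors of qHSCs received the standard diet and had an age of 36 weeks (qHSC 1, 2 and 5) or 34 weeks (qHSC 3 and 4). The cells were released by enzymes, floated on a density gradient and sorted on their own droplet fluorescence, green for hypHSCs and blue for qHSCs, and preparations with sufficient RNA quality were taken. Diet, age, digestion and sorting gate changed together between the groups and cannot be told apart. The mouse behind each library was not given in the sources used here, so n counts preparations and the p-values measure the spread between preparations.

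Fatty acids reach a cell free or held as triglyceride in lipoproteins, from which lipoprotein lipase (LPL) releases them outside the cell. Fatty acid transport proteins (FATPs, encoded by the Slc27a genes) sit in membranes and couple uptake to activation with coenzyme A. Inside, fatty acid binding proteins (FABPs) carry the insoluble chains to membranes, droplets, mitochondria and nuclear receptors, and each member has its own home tissue: FABP1 in liver and gut epithelium, FABP3 in heart and muscle, FABP4 in adipocytes and macrophages, FABP5 in epidermis and macrophages, and FABP7 in brain glia. HSCs hold retinyl esters and triglycerides in their droplets.

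The label of the sorted cells was first compared with marker genes. Over all 14630 tested genes, 17.8% were called higher and 21.7% lower, by the threshold given below. All 10 quiescent HSC markers tested, Lrat, Reln and Des among them, were lower in hypHSCs, with a median log2 fold change of -6.27. All 12 core macrophage markers were higher, with a median of 4.43, but the groups overlapped for Adgre1, Csf1r, C1qa and C1qb. The summed level of the 12 was 1032120 to 1447590 normalized counts in hypHSCs against 5971 to 103681 in qHSCs. Lyz2, the macrophage lysozyme, alone gave 740305 to 940344 of it in hypHSCs and 1264 to 30968 in qHSCs. All 7 markers of lipid-associated macrophages, such as Trem2, Gpnmb and Mmp12, were higher too, with sums of 989354 to 1100500 against 1143 to 2933. The hypHSC libraries are therefore named here by their label only. Among qHSCs, markers of resident Kupffer cells were highest in qHSC 1 and 4, whose sums of 16617 and 37359 stood against 1058 to 1620 in qHSC 2, 3 and 5, and the hypHSC sums were 14397 to 26274. None of the 10 hepatocyte markers passed the test, and their sum was highest in hypHSC 5 (284029) and lowest in hypHSC 3 (76254). Of 5 markers of bile duct cells 4 were tested, and all 4 were higher, 3 of them without overlap. Their sums were 486 to 2866 in hypHSCs against 6.29 to 58.8 in qHSCs. Of 8 sinusoidal endothelial markers 6 were tested, 1 higher and 2 lower. Libraries hypHSC 5 and 4 correlated least with their own group, with a median r of 0.824 and 0.888 against at least 0.907 for the others. Reads on entries with a symbol numbered 30534719 to 43283589 in hypHSCs and 35640104 to 47317028 in qHSCs, and the mitochondrial share of reads was 2.21% to 12.8% against 1.25% to 1.61%. In such bulk libraries, fewer cells of a type and less RNA per cell cannot be told apart.

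The bases just before the transcript start are shown for Fabp5, the gene with the largest rise of the 10, for Fabp7, and for Lpl, the lipase that supplies the fatty acids. Each stretch is 250 bases, 5′ to 3′ on the strand of the gene, read from the GRCm39 genome and ending at the base before the start of the canonical GENCODE transcript. Capitals mark the letters of the motifs searched on both strands.
Fabp5, chr3:10077352-10077601, plus strand: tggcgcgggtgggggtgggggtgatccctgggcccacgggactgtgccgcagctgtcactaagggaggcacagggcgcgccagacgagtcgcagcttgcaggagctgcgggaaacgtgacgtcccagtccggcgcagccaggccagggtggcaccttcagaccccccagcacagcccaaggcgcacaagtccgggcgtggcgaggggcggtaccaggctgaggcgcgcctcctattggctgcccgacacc
Fabp7, chr10:57660706-57660955, plus strand: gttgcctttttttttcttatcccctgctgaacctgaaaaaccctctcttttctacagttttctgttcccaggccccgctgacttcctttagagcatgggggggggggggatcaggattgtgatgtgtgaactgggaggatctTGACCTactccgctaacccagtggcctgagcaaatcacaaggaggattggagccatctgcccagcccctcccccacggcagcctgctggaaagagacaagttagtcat
Lpl, chr8:69332893-69333142, plus strand: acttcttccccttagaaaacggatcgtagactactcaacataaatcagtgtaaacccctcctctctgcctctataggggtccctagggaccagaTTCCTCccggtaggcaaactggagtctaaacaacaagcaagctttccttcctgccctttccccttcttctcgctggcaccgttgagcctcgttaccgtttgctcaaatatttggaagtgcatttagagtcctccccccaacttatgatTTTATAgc
The Fabp5 stretch holds 71.2% G and C, that of Fabp7 53.2% and that of Lpl 48.0%. In Fabp7 the nuclear receptor core AGGTCA lies on the opposite strand at base -108, counted back from the start, and in Lpl the PU.1 core GAGGAA at -156 and the TATA box letters TATAAA at -8 also lie on the opposite strand. No motif searched, the AP-1 site TGANTCA included, was present in the Fabp5 stretch. The Fabp4 stretch, not shown, held AGGTCA at -225, the AP-1 site at -21 and GAGGAA at -14. Of the 10 genes, AGGTCA was held by 3 (Fabp1, Fabp4 and Fabp7) and GAGGAA by 3 (Fabp4, Lpl and Slc27a4). The AP-1 site was held by 1 (Fabp4) and TATAAA by 1 (Lpl). Of 21757 promoters of the same length, AGGTCA was held by 13.118%, GAGGAA by 22.931%, TGANTCA by 6.177% and TATAAA by 11.918%. The direct repeat DR1, the element read by PPAR with RXR, was held by 0.037% of all promoters and the E-box CACGTG by 6.265%, and neither by the 3 stretches shown.

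Of the 10 genes, 6 were higher in hypHSCs and none was lower, where a call needed a change of 1 or more on the log2 scale and a limma adjusted p of 0.05 or less. Among the 14630 genes tested, 17.8% were called higher, 21.7% lower and 39.5% either way, against 6 and 0 of these 10. The genes called were Fabp5, Fabp4, Fabp7, Fabp3, Lpl and Slc27a1, and Fabp1, Slc27a2, Slc27a3 and Slc27a4 were not. In each of the 6, every hypHSC library lay above every qHSC library, a separation found in 17.6% of all tested genes upward and in 22.0% downward. All 10 passed the filter on low values, and their median log2 fold change was 3.41 beside -0.20 over all tested genes. With the libraries scaled on Hprt, Pgk1 and Actb in place of the deposited scaling, all genes shifted to a median of -1.12 and calls split into 1472 higher and 6988 lower, against 2602 and 3177 as deposited. The same 6 genes were called higher under each of the 27 alternative settings. Fabp1, Fabp4, Fabp5, Slc27a1 and Lpl are also named by the study from these same libraries, so their direction is not independent of that choice.

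**Figure D1:**
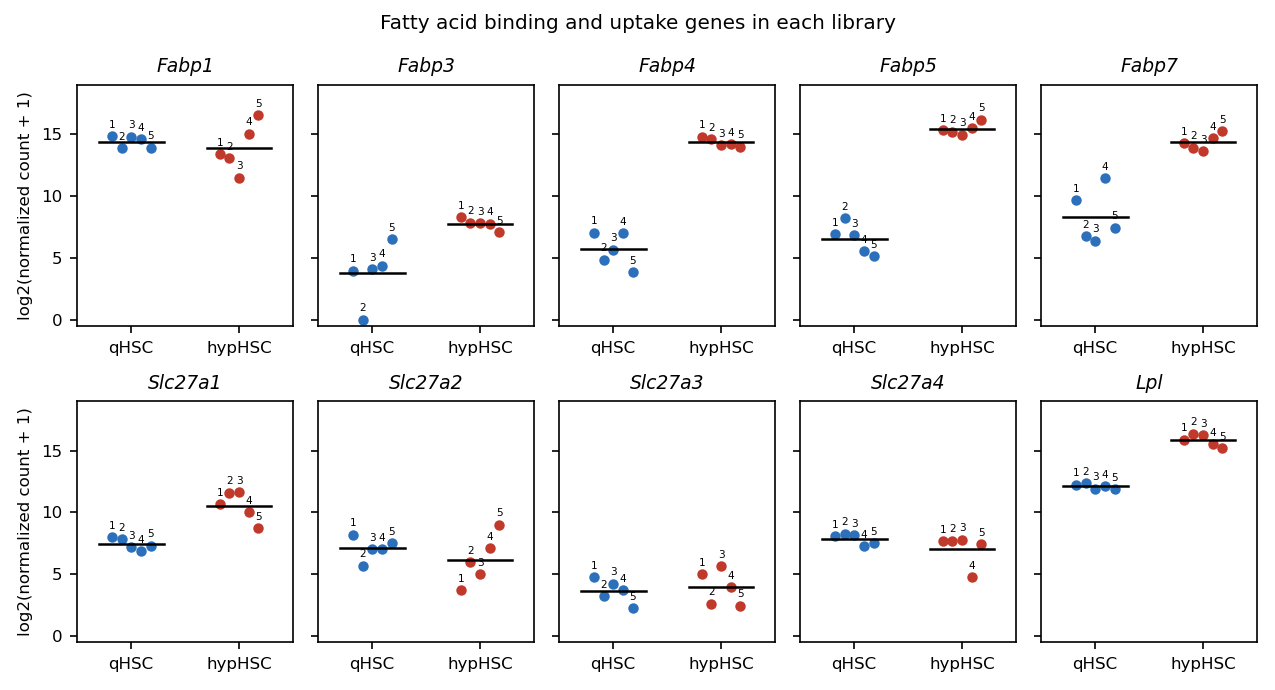
Level of each gene in each library, as log2(normalized count + 1) on the vertical axis, with qHSC libraries in blue, hypHSC libraries in red, library numbers beside the points and the group mean as a bar. The groups stand apart for Fabp3, Fabp4, Fabp5, Fabp7, Slc27a1 and Lpl and overlap for the other 4 genes.

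Fabp4 and Fabp5, which encode the binding proteins of adipocytes, macrophages and epidermis, went from near absence to some of the most changed transcripts of the comparison. Fabp5 was measured at 40100, 37256, 31312, 46079 and 73293 normalized counts in hypHSC 1 to 5 and at 121, 289, 112, 46.2 and 33.7 in qHSC 1 to 5. Fabp4 was measured at 28229, 24471, 17548, 18659 and 16108 in hypHSC 1 to 5 and at 130, 28.1, 49.6, 128 and 13.5 in qHSC 1 to 5. The lowest hypHSC library exceeded the highest qHSC library 108-fold for Fabp5 and 124-fold for Fabp4. The log2 fold change was 8.89 (SE 0.50, limma adjusted p = 2.79e-07) for Fabp5 and 8.64 (SE 0.55, adjusted p = 5.60e-07) for Fabp4, on the log2(normalized count + 1) scale, and they ranked 21 and 23 from the top among the 14630 genes. The exact two-sided permutation test gave p = 0.00794 for both, the smallest that 5 libraries against 5 allow, as it did for the other 4 genes called.

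The pair did not vary alike between libraries. The ratio of Fabp5 to Fabp4 counts was 1.42, 1.52, 1.78, 2.47 and 4.55 in hypHSC 1 to 5, because Fabp5 was highest in hypHSC 5 where Fabp4 was lowest. In qHSCs, Fabp4 was highest in qHSC 1 and 4, the qHSC libraries with the most Kupffer cell and core macrophage marker counts, whereas Fabp5 was highest in qHSC 2. The sum of the 12 core macrophage markers differed in make-up between libraries. Lyz2 gave 890477 of 1333230 counts in hypHSC 1 but 1264 of 5971 in qHSC 2, where Mertk gave 1247. Ratios to this sum, here and below, depend on that make-up. Per 100 counts of the 12 markers, Fabp4 stood at 1.42 to 2.12 in hypHSCs and at 0.123 to 0.489 in qHSCs, with no overlap. Against Lyz2 alone, however, qHSC 2 (0.0222) fell within the hypHSC range (0.0217 to 0.0317). Per 100 counts of the 12 markers, Fabp5 stood at 2.53 to 7.10 in hypHSCs and 0.0446 to 4.84 in qHSCs, with overlap through qHSC 2. Set against Trem2, a receptor of lipid-associated macrophages, Fabp4 stood at 0.768 to 1.05 in hypHSCs and 0.857 to 10.98 in qHSCs. Fabp5 stood at 1.40 to 3.91 and 0.643 to 113, and the groups overlapped for both genes. Trem2 itself was at 2.56 to 90.5 normalized counts in qHSCs. The highest ratios, 10.98 and 113, come from qHSC 2, where Trem2 had 3 reads, so they are uncertain. The part of macrophage RNA in both rises was not tested. Adipocyte markers were near 0: none of 6 passed the filter, Plin1 and Lep were at 0 in all 10 libraries, and their sum was 6.05 to 114 in hypHSCs and 0 to 30.8 in qHSCs. Of the 59-base stretches of the canonical Fabp5 transcript, 37.11% occur elsewhere in the genome, at 6 places, while none of the Fabp4 stretches do, so the Fabp5 count is the less certain.

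Fabp7, the brain FABP, rose as well, and its qHSC values spread by a factor of 33.2. It was measured at 19978, 15230, 12330, 26268 and 38763 normalized counts in hypHSC 1 to 5 and at 819, 107, 81.9, 2719 and 171 in qHSC 1 to 5. The groups did not overlap, but qHSC 4 and 1 stood well above the other qHSC libraries. The log2 fold change was 6.01 (SE 0.85, adjusted p = 0.000169), and without qHSC 1 and 4 it was 7.49 (SE 0.39, adjusted p = 1.76e-06). This omission was chosen after seeing the data, and dropping the highest qHSC values raises the estimate by construction. Libraries qHSC 1 and 4 were also the highest in Clec4f, a lectin of Kupffer cells. The ratio of Fabp7 to Clec4f was within 0.0907 to 0.196 in all 5 qHSC libraries. In hypHSCs the ratio was 3.07 to 8.26. Per 100 counts of the 5 Kupffer cell markers, Fabp7 stood at 4.93 to 10.5 in qHSCs and at 64.0 to 226 in hypHSCs. Against the 12 core macrophage markers, in contrast, the groups overlapped, with 0.808 to 2.62 per 100 in qHSCs and 0.998 to 3.76 in hypHSCs. Which cells carried Fabp7 was not tested. Glial markers were low: Sox10 and Cdh19 were at 0 in all 10 libraries, and of the 2 glial markers that passed the filter Mbp was higher (12.1 to 288 against 0 in every qHSC library) and S100b was not called.

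**Figure D2:**
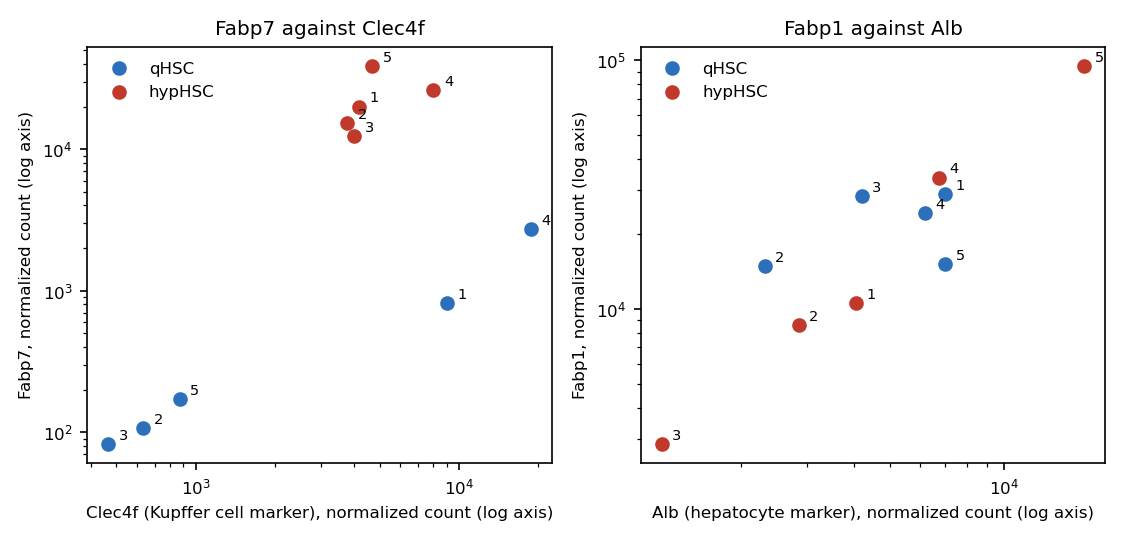
Left, Fabp7 against the Kupffer cell marker Clec4f; right, Fabp1 against the hepatocyte marker Alb, both as normalized counts on log axes with 1 numbered point per library. On the left the hypHSC points lie above the qHSC points, 3 of which have less Clec4f and 2 more, with Fabp7 to Clec4f ratios of 3.07 to 8.26 and 0.0907 to 0.196; on the right the groups share a ratio range, 2.31 to 5.80 and 2.17 to 6.78.

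Fabp3, the FABP of heart and muscle, rose from a low level. It was measured at 307, 227, 220, 216 and 135 normalized counts in hypHSC 1 to 5 and at 14.5, 0, 15.8, 19.7 and 90.7 in qHSC 1 to 5. The groups were apart by a factor of 1.48 between the lowest hypHSC and the highest qHSC library, which was qHSC 5. No read was counted in qHSC 2, where 3 reads would be 2.56 normalized counts, a limit of counting error only. The log2 fold change was 3.96 (SE 0.96, adjusted p = 0.00541), and it ran from 3.02 without qHSC 2 to 4.65 without qHSC 5. Because 52.16% of the 59-base stretches of its canonical transcript also occur at 1 other place in the genome, reads of Fabp3 could have been assigned or lost there, which was not tested.

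Fabp1, the liver FABP and the classical hepatocyte member, was the most abundant FABP of qHSCs and did not pass the test. It was measured at 10567, 8634, 2849, 33734 and 94816 normalized counts in hypHSC 1 to 5 and at 28976, 14817, 28455, 24349 and 15142 in qHSC 1 to 5. The qHSC libraries lay within a factor of 1.96 of each other, whereas the hypHSC libraries spanned a factor of 33.3 and reached beyond the qHSCs on both sides. The log2 fold change was -0.49 (95% interval -2.17 to 1.19, adjusted p = 0.624; exact permutation p = 0.571), and DESeq2 and edgeR on the recovered reads put it on the other side of 0, at 0.43 and 0.52. Without hypHSC 4 and 5, which hold its highest hypHSC values, Fabp1 was called lower, at -1.75 (SE 0.42, adjusted p = 0.00566). This omission was chosen after seeing the data and lowers the estimate by construction, so the call is no separate evidence. Without hypHSC 3 the value was 0.12. The summed hepatocyte markers were highest among hypHSCs in hypHSC 4 and 5 (167449 and 284029) and lowest in hypHSC 3 (76254). The ratio of Fabp1 to Alb was 2.31 to 5.80 in hypHSCs and 2.17 to 6.78 in qHSCs. Fabp2, the intestinal FABP, had the same order of libraries at its ends, lowest in hypHSC 3 and highest in hypHSC 5, and Fabp1 exceeded it 58.5- to 131-fold in hypHSCs and 63.0- to 122-fold in qHSCs. The part of hepatocyte RNA in the Fabp1 counts was not tested.

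The make-up of the FABP transcripts was compared per length, as FPKM from the recovered reads. With the summed exon length of each gene, Fabp1 made up 94.3% to 99.7% of the summed FPKM of the 5 FABP genes in qHSCs and 16.3% to 72.4% in hypHSCs. The share of Fabp1 in hypHSC 1 to 5 was 32.7%, 32.1%, 16.3%, 57.6% and 72.4%, and Fabp7 (15.6% to 37.1%), Fabp5 (10.3% to 32.9%) and Fabp4 (1.67% to 13.6%) took most of the rest. Fabp3 stayed below 0.16% in every library. The order of the others depended on the length used, since the GENCODE exons of Fabp4 sum to 4953 bases against 1360 in the canonical transcript and those of Fabp5 to 3667 against 993. With canonical lengths the median hypHSC shares were 39.8% for Fabp5, 20.5% for Fabp4, 18.8% for Fabp7 and 18.5% for Fabp1, and Fabp1 still held 93.4% to 99.5% in qHSCs. The summed FPKM of the 5 genes, with summed exon lengths, was 722 to 4062 in hypHSCs and 638 to 1378 in qHSCs, which overlapped.

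**Figure D3:**
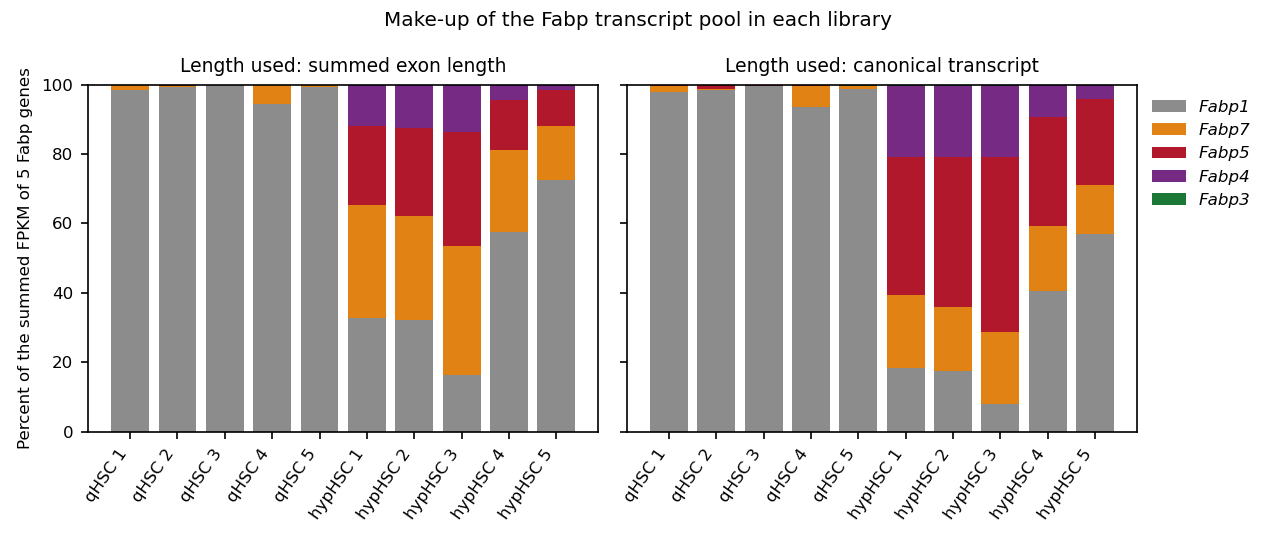
Percent of the summed FPKM of Fabp1, Fabp3, Fabp4, Fabp5 and Fabp7 that each gene takes in each library, stacked, with the summed exon length on the left and the canonical transcript length on the right. Fabp1 fills 94.3% to 99.7% of the qHSC bars on the left and 16.3% to 72.4% of the hypHSC bars, with hypHSC 5 the highest of these.

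Of the 4 FATP genes followed, only Slc27a1 passed the test. Slc27a1, the FATP of muscle and fat, was measured at 1644, 3116, 3168, 1031 and 431 normalized counts in hypHSC 1 to 5 and at 253, 226, 145, 116 and 158 in qHSC 1 to 5. The lowest hypHSC library, hypHSC 5, was 1.70-fold above the highest qHSC library. The log2 fold change was 3.10 (SE 0.51, adjusted p = 0.000476) and became 3.87 (SE 0.31, adjusted p = 6.86e-06) without hypHSC 4 and 5. These libraries hold its lowest hypHSC values and were left out after seeing the data, so the second value is no separate evidence. Per 100 counts of the core macrophage markers Slc27a1 stood at 0.0418 to 0.256 in hypHSCs and at 0.112 to 3.78 in qHSCs, which overlapped, and the part of macrophage RNA in its rise was not tested. Slc27a1 supplied 73.1% to 87.5% of the summed FATP FPKM in hypHSC 1 to 4, 23.9% in hypHSC 5 and 16.5% to 28.0% in qHSCs, with summed exon lengths.

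Slc27a2, the FATP of liver and kidney, was measured at 12.1, 61.1, 30.8, 138 and 511 normalized counts in hypHSC 1 to 5 and at 291, 51.1, 128, 129 and 185 in qHSC 1 to 5. Its log2 fold change was -0.94 (95% interval -2.87 to 0.99, adjusted p = 0.402; exact permutation p = 0.373). Like Fabp1 it was highest in hypHSC 5 and 4, and without these libraries it was called lower, at -2.21 (SE 0.63, adjusted p = 0.0138). It was not called when qHSC 1 and 4 were left out as well (-1.87, adjusted p = 0.0582). Both omissions were chosen after seeing the data, and dropping its highest hypHSC values lowers the estimate by construction. Slc27a4, a widely expressed FATP, was measured at 205, 208, 222, 26.2 and 174 in hypHSC 1 to 5 and at 274, 310, 283, 156 and 181 in qHSC 1 to 5. Its log2 fold change was -0.79 (95% interval -2.02 to 0.45, adjusted p = 0.269; exact permutation p = 0.190), with hypHSC 4 far below the rest, and it was called lower (-1.72, adjusted p = 0.0169) only under the scaling on Hprt, Pgk1 and Actb. Slc27a3 was low, between 4.54 and 49.1 in hypHSCs (3 to 59 reads) and between 3.75 and 26.3 in qHSCs (5 to 29 reads). Only hypHSC 5 was at the detection floor of 3 reads. The change of Slc27a3 was 0.30 on the log2 scale (95% interval -1.40 to 2.00, adjusted p = 0.773; exact permutation p = 0.706). It took the opposite sign with the libraries scaled to the same total or on Hprt, Pgk1 and Actb. Of the FATP genes outside these 4, Slc27a5, the bile acid and very long chain ligase of hepatocytes, was lower (-2.86, adjusted p = 0.00244) at 15.8 to 198 against 232 to 758, and Slc27a6 was not called.

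**Figure D4:**
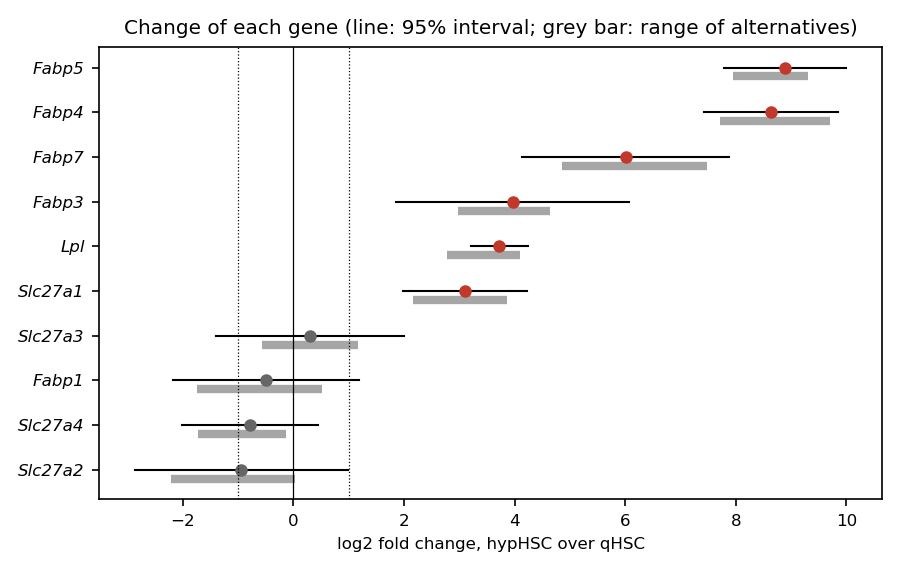
Log2 fold change of each gene, hypHSC over qHSC, with its 95% interval (line) and the range over the alternative settings (grey bar); red points were called higher, and dotted lines stand at the call threshold of 1 in both directions. Fabp5 (8.89) and Fabp4 (8.64) lie farthest to the right, and the intervals of Slc27a3, Fabp1, Slc27a4 and Slc27a2 cross 0.

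Lpl, the lipase that frees fatty acids from circulating triglyceride, was already expressed in qHSCs and rose with the smallest error of the 10 genes. It was measured at 60631, 84159, 77115, 47635 and 36906 normalized counts in hypHSC 1 to 5 and at 4884, 5321, 3895, 4420 and 3815 in qHSC 1 to 5. The lowest hypHSC library was 6.94-fold above the highest qHSC library, and the log2 fold change was 3.73 (SE 0.24, adjusted p = 5.42e-07). The qHSC values spread by a factor of 1.39 while the core macrophage markers of the same libraries ran from 5971 to 103681. Per 100 counts of these markers Lpl stood at 4.26 to 89.1 in qHSCs and at 3.58 to 6.24 in hypHSCs, and the groups overlapped through qHSC 4. Lpl was lowest in hypHSC 5 and 4, as was Slc27a1, in the libraries where Fabp1, Fabp5 and Fabp7 were highest. The part of macrophage RNA in its rise was not tested.

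The 14 partners and inhibitors of LPL all passed the filter, 3 higher and 5 lower, where 17.8% and 21.7% of all tested genes were. Their median log2 fold change was -1.07 beside -0.20 over all tested genes. Sortilin (Sort1), a sorting receptor that binds LPL, rose at 4.42 (adjusted p = 3.63e-07), from 50.2 to 102 normalized counts in qHSCs to 1089 to 2038 in hypHSCs. Apoc2, the cofactor LPL needs, rose at 1.49 (adjusted p = 0.0355), and Furin, a protease that can cleave LPL, at 1.03 (adjusted p = 0.00427). Angptl4, an inhibitor that inactivates LPL, fell at -1.81 (adjusted p = 0.000510), from 1240 to 2104 in qHSCs to 290 to 846 in hypHSCs. Lmf1, needed for the folding of LPL, was also lower (-1.30, adjusted p = 0.0439), as were the protease Pcsk6 (-3.43, adjusted p = 0.0168), the activator Apoa5 (-1.88, adjusted p = 0.0111) and Apoc1 (-1.24, adjusted p = 0.0207). Gpihbp1, which holds LPL on capillary endothelium, was at 0 to 99.7 in hypHSCs and 10.5 to 38.5 in qHSCs and was not called. The groups overlapped for Pcsk6, Apoa5, Apoc1 and Apoc2, the last at 1901 to 12950 in hypHSCs and 659 to 2683 in qHSCs. Apoa5, Apoc1 and Apoc2 are made by hepatocytes, and the part of hepatocyte or macrophage RNA in their values was not tested.

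Other proteins of fatty acid uptake, activation and transport were taken from a list. Of 6 further uptake genes 5 passed the filter and 4 were higher: Cd36, the scavenger receptor that takes up fatty acids (10.05, adjusted p = 1.95e-05), the caveolins Cav1 (7.95, adjusted p = 6.65e-05) and Cav2 (2.11, adjusted p = 0.000123), and the fatty acid receptor Ffar4 (3.64, adjusted p = 0.0140). The groups overlapped for Ffar4, at 16.2 to 128 normalized counts in hypHSCs and 0 to 28.3 in qHSCs. Got2 was not called (-0.55, adjusted p = 0.253), and Ffar1 was at 0 in every library. Cd36 stood at 79927 to 183245 normalized counts in hypHSCs and at 3.41 to 687 in qHSCs. The part of macrophage RNA in the values of these uptake genes was not tested. Of 7 acyl-CoA synthetases, which trap fatty acids as coenzyme A esters, 4 were tested, none was higher and 2 were lower, Acsl4 (-1.04, adjusted p = 0.00520) and Acsl5 (-1.01, adjusted p = 0.000857). Of 7 acyl-CoA and sterol carriers 6 were tested. Dbi, the acyl-CoA binding protein, was higher (1.79, adjusted p = 0.000544) at 32246 to 114766 against 14983 to 18458, and Acbd4 was lower (-2.88, adjusted p = 9.24e-05). Over all pathway genes listed beside the 10, 52 of 67 were tested, 15 were higher and 13 lower, with a median log2 fold change of -0.34. Over all 14630 tested genes, 17.8% were called higher and 21.7% lower, and the median was -0.20.

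Among the 11 transcriptional regulators linked to these genes, 5 were higher and 2 lower, where 17.8% and 21.7% of all tested genes were. Their median log2 fold change was -0.50 beside -0.20 over all tested genes. Pparg, the nuclear receptor known to activate Fabp4, Lpl and Slc27a1, rose at 7.40 (adjusted p = 4.07e-05), from 0 to 29.9 normalized counts in qHSCs to 764 to 1195 in hypHSCs. Its partner Rxra fell at -1.77 (adjusted p = 0.00409), and Ppara, the fatty acid sensor of hepatocytes, at -2.04 (adjusted p = 0.0180). Cebpa and Cebpb, factors of adipocyte and myeloid genes, rose at 4.21 (adjusted p = 6.11e-06) and 2.07 (adjusted p = 0.00115), the oxysterol receptor Nr1h3 at 2.33 (adjusted p = 0.000975) and the coactivator Ppargc1a at 3.98 (adjusted p = 0.00692), the last from few reads. Among the regulators called, the groups overlapped for Ppara, Nr1h3 and Ppargc1a. Ppard, Rxrb, Hnf4a and Srebf1 were not called. Several of these are expressed in macrophages or hepatocytes as well, and the part of those cells in their values was not tested.

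Fabp4 and Fabp5 lie near each other on chromosome 3, and the entries with a symbol within 500 kb of the Fabp4 start were therefore compared. Fabp5 starts at -192 kb from the Fabp4 start, and Pmp2, Fabp9 and Fabp12, which encode relatives, at -24.5, -10.7 and 39.9 kb. Of the 11 entries 7 were tested, 4 were higher and none lower, where 17.8% and 21.7% of all tested genes were. The 4 include Fabp4, on which the window was centred, and Fabp5, both already among the genes called above. The count therefore rests in part on genes already called, and a regional rise was not tested. Beside Fabp4 and Fabp5, Chmp4c (1.96, adjusted p = 0.000530) and Snx16 (1.27, adjusted p = 0.0372) were higher, both by far less, and Myef2l, Impa1 and Zfand1 were not called. The relatives stayed low, with at most 4.04 normalized counts for Pmp2, 34.9 for Fabp9 and 13.6 for Fabp12 in hypHSCs and 0 in every qHSC library.

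**Figure D5:**
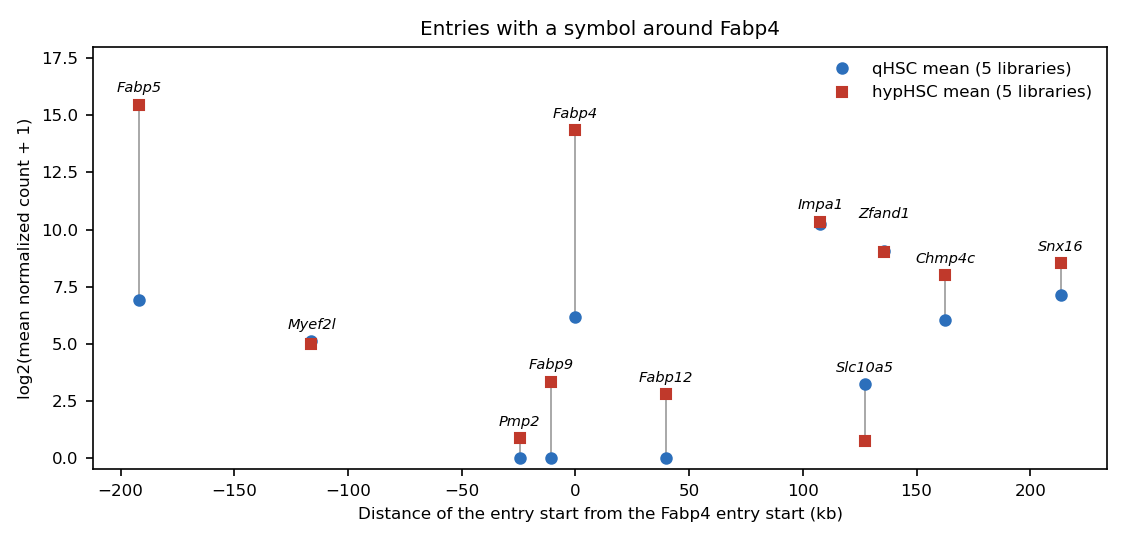
Mean level of each entry with a symbol, as log2(mean normalized count + 1), against its distance in kb from the Fabp4 start, with qHSC means as blue circles and hypHSC means as red squares, 5 libraries each. Fabp5 at -192 kb and Fabp4 at 0 show wide gaps between the groups, while Pmp2, Fabp9 and Fabp12 around Fabp4 stay low in both.

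For each gene called whose mean reached 100 normalized counts, the 2 genes nearest in profile over the 10 libraries were sought, by the root mean square difference of log2 values centred on the mean of each gene. Fabp4 was nearest to the dipeptidase gene Dpep2 (0.67) and the sorting receptor gene Sorl1 (0.71), and Fabp5 also to Dpep2 (0.71) and to Pdpn (0.74), which encodes podoplanin. Fabp7 was nearest to the myeloid receptor genes Cd300ld (0.33) and Clec4b1 (0.36). Slc27a1 was nearest to Atp6v0a1 (0.34), a subunit of the vacuolar proton pump, and Ikbke (0.35), and Lpl to Fam107b (0.28) and Peds1 (0.29). Fabp3 was nearest to the cell division genes Cep55 (0.70) and Ndc80 (0.72). The median difference over all tested genes was 1.96 to 4.67, and in all of these pairs the contrast between the groups makes up most of the profile.

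Within hypHSCs, the libraries at 13 weeks of diet (hypHSC 1 and 2) and at 12 weeks (hypHSC 3, 4 and 5) are set side by side without a test. The mitochondrial share of reads was 12.8% and 7.27% at 13 weeks and 2.21% to 3.42% at 12 weeks, and its part in the values was not tested. Fabp4 was 24471 and 28229 normalized counts at 13 weeks and 16108 to 18659 at 12 weeks, without overlap. Fabp3 was 227 and 307 against 135 to 220, also without overlap. Fabp5, Fabp7, Lpl and Slc27a1 overlapped between the times, as did Fabp1, Slc27a2, Slc27a3 and Slc27a4. With 2 libraries against 3, full separation often arises by chance, and its share over all tested genes was not counted. Whether Fabp4 or Fabp3 changed with diet time was therefore not tested.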

How the data were processed

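RNA was extracted from sorted cells, reverse-transcribed with oligo dT, amplified and sequenced as 59-base pairs without strand, as the study's methods state. Per the submitters' processing notes and the methods, the authors used STAR 2.7.5a on mm39 (GRCm39), featureCounts from Subread 1.5.0 with FAST DB annotations and DESeq2. The deposited values are a signal, the read count of each entry divided by 1 size factor per library, called normalized count here. Multiplying by the size factor gave whole reads for 100% of values in each library. No per-sample column was left unused.

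The main test was limma 3.58.1 (R 4.3.3, intensity trend) on log2(normalized count + 1) of the entries with a symbol that reached 10 normalized counts in 5 or more of the 10 libraries, with Benjamini-Hochberg adjustment over the 14630 genes. DESeq2 1.42.0 and edgeR 4.0.16 (quasi-likelihood) on recovered reads were alternatives, since the study tested counts with DESeq2. Exact two-sided permutation tests used 252 arrangements. A detection floor was set at 3 reads, 2.25 to 4.54 normalized counts. Such limits hold counting error alone, as PCR copies 1 molecule into many reads. FPKM used recovered reads and GENCODE vM39 lengths. Overlapping antisense genes cannot be told apart without strand. No 2 libraries differed by less than sampling noise.

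The genes, the pathway and marker lists and the tests were chosen with earlier results of these data known. Named were the 10 genes, called members of the lists, entries within 500 kb of Fabp4 and the 2 nearest profiles of each called gene whose mean reached 100 normalized counts. List members that were not called, and the markers used as denominators, were named after their values were seen. The alternatives changed pseudocount, filter, scaling, tool, samples or entries 1 at a time. Scripts were tested on simulated data. Some items are not reported here.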

Additional observations from a re-analysis of the deposited data

Results flagged for a closer look

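Among the 20 groups of 5 libraries formed by the 10 genes, 1 had a library far from the others. Slc27a4 in hypHSC 4 stood at 26.2 normalized counts, against 174 to 222 in the other 4 hypHSC libraries, and on the log2(normalized count + 1) scale the gap took 0.885 of the range of the group. Chance flags about 1 in 20 such groups. Without hypHSC 4 the log2 fold change of Slc27a4 was -0.21 in place of -0.79, and neither was called.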

How the results depend on the processing

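Of 270 values of the 10 genes under 27 alternatives, 258 kept their direction and their side of the threshold, 8 changed sign and 4 passed the threshold anew, all 12 among the 4 genes not called. Fabp3, Fabp4, Fabp5, Fabp7, Slc27a1 and Lpl were called higher in all 162 of theirs. Fabp1 turned to 0.43 with DESeq2 and 0.52 with edgeR, and ran from -1.15 to 0.12 when single libraries were left out. Slc27a2 turned to 0.036 with edgeR. Slc27a3 turned to -0.020 with the same total and to -0.56 with scaling on Hprt, Pgk1 and Actb, and ran from -0.13 (without hypHSC 3) to 0.67 when single libraries were left out, with -0.05 without qHSC 5. That scaling called 1 of the 10 genes lower (Slc27a4, -1.72), and it gave 1472 higher and 6988 lower calls over all genes. Testing against the fold threshold (limma treat) gave 1465 and 1626, and adding entries without a symbol 3911 and 5380. The following were added after seeing the data. Without hypHSC 4 and 5, 2 genes were called lower (Fabp1, -1.75; Slc27a2, -2.21), and without these and qHSC 1 and 4, 1 gene (Fabp1, -1.54). With canonical transcript lengths the median shares of FABP FPKM in hypHSCs were 0.316% for Fabp3, 20.5% for Fabp4, 39.8% for Fabp5 and 18.8% for Fabp7, those in qHSCs 0.0774% for Fabp4 and 0.222% for Fabp5, and the Slc27a1 share of FATP FPKM in qHSCs 23.9%; the shorter lengths of these transcripts make this difference. The causes of the other changes were not tested. Equal replicate numbers cannot mark shared animals, since the groups differed in diet and age. Deviations of same-numbered libraries correlated at 0.008 to 0.129, and only number 5 was its own best partner. With the number as a replicate block, 6 of the 10 genes were called higher and 0 lower, as without it, and all genes gave 2557 and 3229 calls. At this depth Slc27a3 and the qHSC values of Fabp3 rest on few reads.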

Other observations

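Relatives of Lpl and other lipid handling genes were measured in the same libraries. Among lipases related to LPL, Lipa, the acid lipase of lysosomes, rose at 2.95 (limma adjusted p = 1.78e-05) and the endothelial lipase Lipg fell at -3.07 (adjusted p = 0.00107), while hepatic lipase (Lipc) was at 22.9 to 87.7 in hypHSCs and 45.2 to 266 in qHSCs and was not called. The lipoprotein receptor gene Lrp8 was higher (5.34, limma adjusted p = 0.000150), and Lrp1, Lsr and Scarb1 were not called.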
